A study of Mus musculus with 21 samples.

Results

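In back skin of mouse embryos at embryonic day 15, 30 wells named DC1 were compared with 1371 wells named Fb (fibroblast) from the same 7 plates, so that each plate supplied its own fibroblasts. These 1401 wells are all wells with either name in libraries 1 to 7 of a table of 1967 wells, and they were chosen by name alone. Each library is 1 plate of single cells sorted from back skin of CD1 mice, profiled with SORT-seq, a plate form of CEL-Seq2 in which random barcodes (unique molecular identifiers, UMIs) count RNA molecules. Libraries 1 and 4 held 5 DC1 wells each, libraries 5 and 7 held 3 each, and libraries 2, 3 and 6 held 4, 2 and 8, beside 132 to 220 fibroblast wells per library. Both groups share strain, tissue and age, and the labels name no treatment for either. The labels name no transgene for these cells, although the table has a row for eGFP, a fluorescent protein, and they do not say whether the plates hold separate embryos or how many embryos were pooled. P-values therefore refer to plates and not to embryos. Those of single genes rest on a spread between plates that is pooled over genes. A gene's own spread is shown by its levels per plate.

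Dermal condensates are clusters of mesenchymal cells that form under the hair placode, the thickening of the epidermis from which a hair follicle grows. Fibroblasts leave the cell cycle, move together and take on a signalling role, and their descendants become the dermal papilla. WNT, FGF and hedgehog signals from the epidermis act on them, and they in turn send BMP, FGF and other ligands. The labels give DC1 no definition beyond its name as a condensate group. They do not state whether a well's name came from the sort or from clustering of the sequenced cells. If clustering named the wells of libraries 1 to 7, the genes that separate the groups were partly used to form them, and the tests then describe the names rather than examine them.

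Within a library, the UMIs of all wells of a group were added up, and levels are given in CPM, the UMIs of a gene scaled to a common total. The fibroblast sums ran from 2372569 to 6033442 UMIs and the DC1 sums from 20122 (library 2) to 163535 (library 6), so that a single UMI was worth 49.7 CPM in the shallowest DC1 sum. The median well held 12476.5 UMIs in DC1 and 18509 in fibroblasts, and 1 DC1 well of library 4 held 68. The mitochondrial share was 6.89% ± 1.14 in DC1 and 6.27% ± 0.563 in fibroblasts (SD, n = 7 libraries, exact two-sided sign-flip permutation p = 0.234). The 8 markers of the condensate summed to 2321 to 3882 CPM in DC1 and to 165 to 190.1 in fibroblasts. The 8 fibroblast markers summed to 10588 to 16707 CPM in DC1 and to 44568 to 55367 in fibroblasts. Both differences had an exact sign-flip permutation p = 0.0156, the smallest that 7 pairs can give, so each marker set stood higher in the wells that carry its name, within the limit on naming given above. Collagens made up most of the fibroblast marker sum. In fibroblasts, Col1a1, Col1a2 and Col3a1 had means of 9285, 17713 and 15800 CPM of a mean sum of 50202. Of the 8 fibroblast markers 7 were called lower in DC1, and Twist2, not called, had more CPM there (1332 against 984).

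Among markers of other cells, keratinocyte genes summed to 236 CPM in DC1 (38.9 to 798) and 167 CPM in fibroblasts (47.2 to 507), with 8 of 9 genes seen in DC1 and Epcam at 0. Red blood cell genes summed to 1448 and 1468 CPM. Schwann cell genes summed to 13.6 CPM in DC1 and 20.5 CPM in fibroblasts, with 6 of 8 at 0 in DC1. Endothelial genes summed to 26.7 CPM (0 to 58.3) and 17.2 CPM (12.6 to 21.6), higher in DC1 in 5 of 7 libraries. Of these, 3 of 8 had no UMI in DC1, including Cldn5, while Kdr had 8 UMIs. For low genes a 0 in DC1 says little, as DC1 held 490585 UMIs in all against 30731513 in fibroblasts. Immune genes summed to 7.21 CPM in DC1 (0 to 19.4) and 16.6 CPM in fibroblasts (8.67 to 23.9), with Tyrobp, Fcer1g, C1qa and Cd74 at 0 in DC1. Pericyte genes summed to 181.2 CPM (96.3 to 348) and 246.1 CPM (222.2 to 262), with Rgs5 at 0. Melanocyte genes summed to 18.2 and 57.6 CPM, skeletal muscle genes to 22.0 and 21.6 CPM, and neuronal genes to 233 and 263 CPM. What part these cells have in the differences was not tested.

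Promoters are shown for a pair of WNT pathway genes that were higher in DC1, because they share a motif. Each sequence runs 5′ to 3′ on the gene's strand from 250 bases before to 50 bases after a transcription start (RefSeq, GRCm38.p6), and capitals mark the letters GTGGGAA, the core read by RBPJ, the DNA-binding partner of Notch. The motif begins at position -28 from the start in Frzb and 37 in Lef1.
Frzb promoter, chr2:80447347-80447646, minus strand: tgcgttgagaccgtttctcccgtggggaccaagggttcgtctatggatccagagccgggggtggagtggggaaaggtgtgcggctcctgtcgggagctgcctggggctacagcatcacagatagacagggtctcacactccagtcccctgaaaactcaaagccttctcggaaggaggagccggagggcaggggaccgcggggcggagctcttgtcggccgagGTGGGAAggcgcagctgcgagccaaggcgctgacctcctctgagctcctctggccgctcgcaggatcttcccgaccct
Lef1 promoter, chr3:131110047-131110346, plus strand: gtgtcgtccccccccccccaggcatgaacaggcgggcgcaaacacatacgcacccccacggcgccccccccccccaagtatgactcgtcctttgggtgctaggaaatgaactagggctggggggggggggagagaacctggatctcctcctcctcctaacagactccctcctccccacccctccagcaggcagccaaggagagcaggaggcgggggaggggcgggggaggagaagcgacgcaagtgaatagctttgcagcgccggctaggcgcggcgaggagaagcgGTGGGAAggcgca
Of 13 promoters of higher WNT, hedgehog and Notch genes, 3 held this motif on either strand (Frzb and a pair of overlapping Lef1 starts), against 6.38% of 32851 mouse promoters of the same length, 35 of 437 promoters of all higher genes (8.01%) and 1 of 10 promoters of lower genes of the same pathways. The Lef1 windows share 1 site, so the 3 windows hold 2 sites. Each of the 13 is a window at a start site, and Lef1 and Ctnnb1 have more than 1 each. The windows therefore cover only part of the higher genes of these pathways. The letters CTTTGAT (TCF/LEF), TGGGTGGTC (GLI) and CATATG (E-box), searched on both strands, were in 0 of the 13 windows, and in 3.73%, 0.253% and 3.91% of all promoters. A match is a string of letters and was not examined as a binding site.

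The first question was which genes set DC1 cells apart from fibroblasts of the same plate. DC1 wells had higher levels of the transcription factor genes Foxd1, Sox18 and Sox11, of the ligand genes Bmp4, Bmp7, Fgf10 and Edn3, and of Cdkn1a, a brake on the cell cycle. Lower in DC1 were 9 of 16 tested interstitial collagens (2 were higher), 25 of 33 tested proteoglycan, elastic fibre and matricellular genes (2 were higher), Nfib and the growth factor gene Igf2. With the library as a block, 426 of 9253 genes were higher (4.60%) and 1013 were lower (10.9%) at an adjusted p under 0.05 (edgeR's quasi-likelihood test, Benjamini-Hochberg). DC1 was higher in 7 of 7 libraries for 395 genes (4.27%) and lower in 7 of 7 for 753 (8.14%). All 7 DC1 sums lay above all 7 fibroblast sums for 2.65% of genes and below them for 5.22%. Fold changes are log2, DC1 over fibroblast.

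The split between higher and lower depends on low genes and on scaling. Of the lower genes, 54 had no UMI in DC1 and 334 had fewer than 10. Over genes with a mean of at least 50 CPM, 433 of 3833 were higher and 435 lower (11.3% each). Of all called genes, 29.6% were higher with TMM scaling, the one used here, 36.1% with RLE scaling, 39.8% with DESeq2, 47.6% with library totals alone and 49.9% with the minimum of 50 CPM. TMM moved DC1 against fibroblasts by 0.276 (log2), and the median fold change of all genes was -0.21, against 0.01 with totals alone. Each list below is read against these shares, over the measured members that passed the filter on low values, which a level in 1 group alone could meet.

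**Figure D1:**
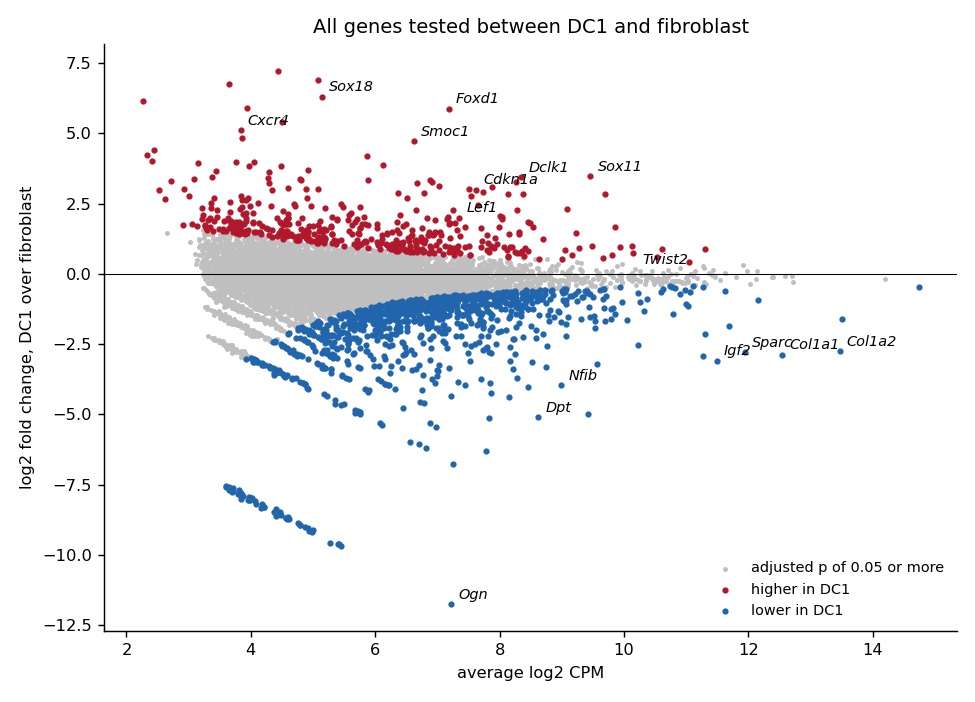
Average log2 CPM (x) and log2 fold change of DC1 over fibroblast (y) for the 9253 genes tested, with called genes in colour. Foxd1 and Sox18 stand near the top, and Col1a1 and Col1a2 are abundant and lower. The band at the bottom left, with Ogn, holds genes with no UMI in DC1, whose plotted values do not measure the size of the fall.

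Foxd1, Sox18, Sox2 and Cxcr4 were low in fibroblasts and present in every DC1 sum. Foxd1, a forkhead factor (chromosome 13, 98354245 to 98356705, mm10), stood at 193 to 865 CPM in DC1 (median 471) and 2.73 to 13.7 in fibroblasts (median 7.17). Each DC1 sum lay above each fibroblast sum, and the fold change was 5.89 (adjusted p = 4.93e-97, SE 0.275). In a fit that also held the DC0 and DC2 wells of these plates the adjusted p was 2.13e-17. Sox18, an SRY-box factor (chromosome 2, 181669837 to 181671640), stood at 36.1 to 845 CPM in DC1 (median 153.4) and 0.331 to 10.5 in fibroblasts (median 1.41), with libraries 2 and 4 highest, and rose by 6.31 (adjusted p = 1.26e-51, SE 0.405). Sox2, a factor of the papillae of some hair types (chromosome 3, 34649995 to 34652461), stood at 12.9 to 153.4 CPM in DC1 (median 96.2) and 0.263 to 2.44 in fibroblasts (median 0.663) and rose by 6.15 (adjusted p = 3.97e-39, SE 0.454), on 37 UMIs in DC1 and 29 in fibroblasts. Cxcr4, the receptor of the chemokine Cxcl12 (chromosome 1, 128588199 to 128592299), stood at 61.4 to 398 CPM in DC1 (median 135) and 1.26 to 8.01 in fibroblasts (median 2.53), and library 2 held its highest DC1 sum. Its fold change was 5.11 (adjusted p = 9.03e-31, SE 0.426). The eGFP row stood at 122.7 to 465 CPM in DC1 (median 226) and 0 to 3.20 in fibroblasts (median 1.76). No group overlapped the other for any of these 5 rows, and a gene used for the sort, if one was, would differ for that reason.

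Single wells varied more than the sums. After thinning wells of at least 3000 UMIs to 3000 each (25 of 30 DC1 wells and 1155 of 1371 fibroblast wells), Foxd1 had a UMI in 19 of 25 DC1 wells (76.0%, exact Clopper-Pearson 95% interval 54.9 to 90.6) and in 2.16% of fibroblast wells (1.41 to 3.18). The shares were 52.0% (31.3 to 72.2) and 0.779% for Sox18, 28.0% (12.1 to 49.4) and 0.0866% for Sox2, and 40.0% (21.1 to 61.3) and 0.866% for Cxcr4. Unthinned, 26 of 30 DC1 wells held a Foxd1 UMI and 15 of 30 a Sox2 UMI, against 4.96% and 1.75% of fibroblast wells. Intervals cover counting error only. Among the 25 wells Foxd1 reached from 44.8 to 1802 CPM with none at 0, whereas 10 wells had no Sox2 UMI, 4 no Cxcr4 UMI and 2 no Sox18 UMI. In library 2, whose sum was highest for Sox18, the 2 wells shown held 1296 and 348 CPM of it.

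**Figure D2:**
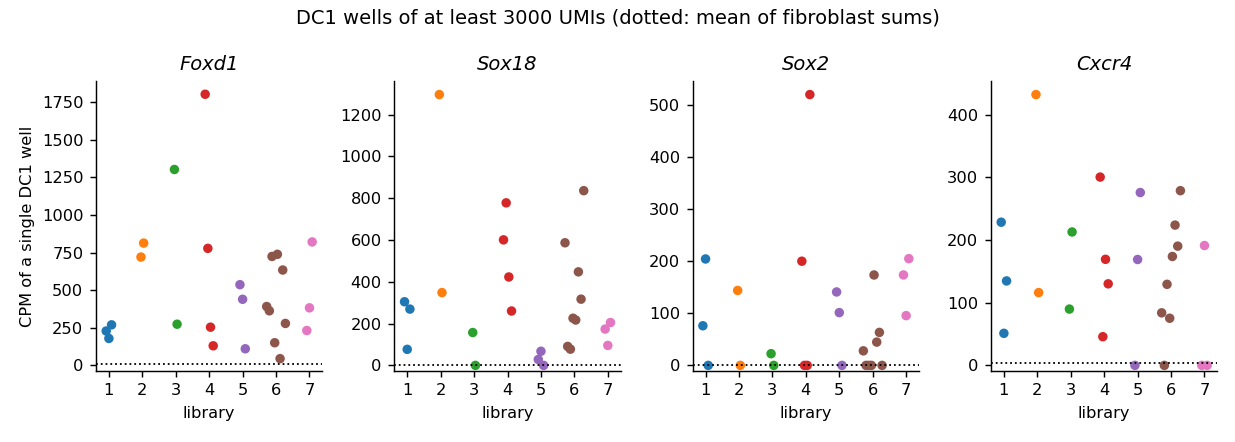
CPM of Foxd1, Sox18, Sox2 and Cxcr4 (y) in the 25 DC1 wells of at least 3000 UMIs, by library (x), with the mean of the fibroblast sums as a dotted line. Foxd1 is above 0 in all 25 wells, and the highest Sox18 and Cxcr4 wells are both in library 2.

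Of 17 tested markers of the condensate (22 listed), 15 were higher and 1, Crabp1, was lower, with a median fold change of 3.0 against -0.21 for all genes. The list was chosen with earlier results of these data known and is no independent evidence of its direction. Crabp1, a carrier of retinoic acid, stood at 298.2 to 4668 CPM in DC1 (median 1188) and 1865 to 2538 in fibroblasts (median 2387). Its groups overlapped, with the DC1 sum of library 1 above every fibroblast sum, and the fold change of -1.05 (adjusted p = 4.49e-08, SE 0.173) was lower in 6 of 7 libraries. Without the block it was -0.66 and did not pass (adjusted p = 0.133). In the fit that also held DC0 and DC2 wells it was -0.80 and did not pass either (edgeR, adjusted p = 0.0742). Of 13 tested fibroblast markers, 11 were lower and only Prrx1, a mesenchymal homeobox factor, was higher (0.99, adjusted p = 1.24e-06, SE 0.18). The remaining one, Twist2, a factor of the dermal lineage, had more CPM in DC1 in 7 of 7 libraries (mean 1332 ± 268.2 against 984 ± 80.01). After TMM scaling its fold change was 0.17 (adjusted p = 0.596), and with totals alone it was 0.43 (adjusted p = 0.0343). It lay below 0 in thinned wells (-0.59, adjusted p = 0.119), in limma (-0.06 and -0.06) and outside the shared run (-0.04), so its direction depends on the processing.

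**Figure D3:**
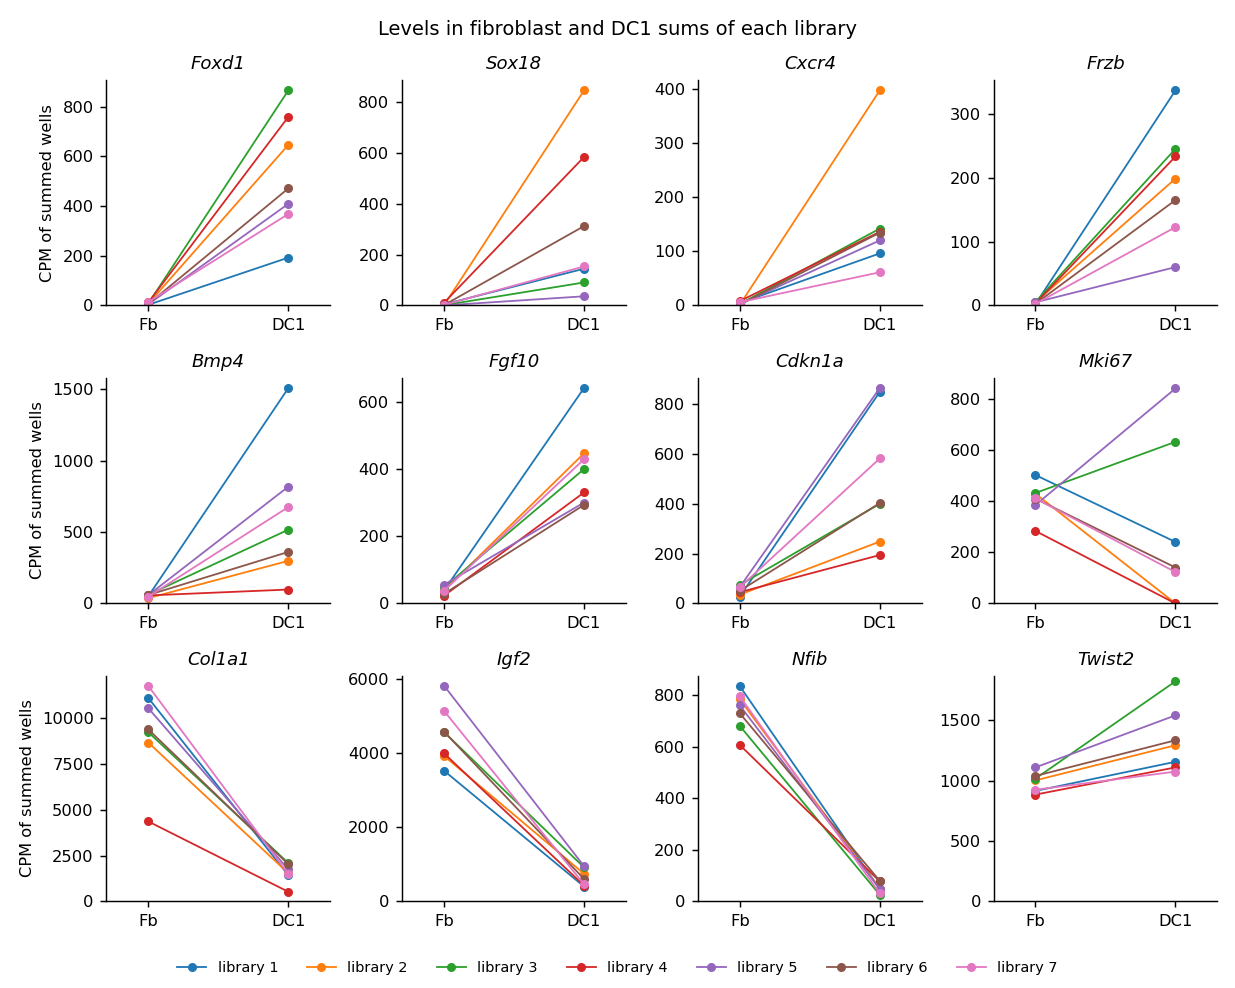
CPM of the summed fibroblast wells (Fb) and DC1 wells of each library (y), joined by a line per library, for 12 genes; each axis starts at 0. The 7 lines rise together for Foxd1, Sox18, Cxcr4, Frzb, Bmp4, Fgf10 and Cdkn1a and fall together for Col1a1, Igf2 and Nfib, while those of Mki67 cross.

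Among genes of secreted signals, Bmp4 stood at 97.2 to 1508 CPM in DC1 (median 517) and 37.1 to 61.0 in fibroblasts (median 56.1). The lowest DC1 sum, in library 4, was still above the highest fibroblast sum, and the rise was 3.08 (adjusted p = 6.83e-36, SE 0.237). Bmp7 (chromosome 2, 172868012 to 172940321) stood at 49.7 to 802 CPM in DC1 (median 301) and 23.3 to 40.8 in fibroblasts (median 27.1) and rose by 3.24 (adjusted p = 3.71e-31, SE 0.268). Fgf10, a mesenchymal ligand that acts on epithelium, stood at 293.5 to 642 CPM in DC1 (median 400.3) and 23 to 55.7 in fibroblasts (median 38.4) and rose by 3.13 (adjusted p = 4.38e-34, SE 0.248); its DC1 sums spread least of these ligands for their mean (406 ± 121 CPM). Edn3, an endothelin that acts on pigment cell precursors, stood at 97.2 to 745 CPM in DC1 (median 459) and 18.8 to 38.4 in fibroblasts (median 31.7) and rose by 3.35 (adjusted p = 2.32e-35, SE 0.26). Enpp2, the enzyme that makes lysophosphatidic acid (chromosome 15, 54838901 to 54952789), rose by 3.03 (adjusted p = 2.27e-31, SE 0.25) to a mean of 454 ± 249.4 CPM (fibroblasts 44.7 ± 4.57). Igf1 rose by 1.43 (adjusted p = 3.11e-09, SE 0.219) but was higher in 6 of 7 libraries only. Inhba, a subunit of activin, rose by 1.63 (adjusted p = 1.00e-04, SE 0.357) and was higher in 5 of 7 libraries, with overlap between the groups.

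Among secreted inhibitors of WNT signalling, some were higher in DC1 and some lower. Frzb, a secreted protein that binds WNT (chromosome 2, 80411970 to 80447396), stood at 60.1 to 337 CPM in DC1 (median 198.8) and 2.23 to 5.39 in fibroblasts (median 3.14) and rose by 5.39 (adjusted p = 2.53e-37, SE 0.407), with no overlap. Wif1, another secreted inhibitor, stood at 311.2 to 722 CPM in DC1 (median 581) and 121.6 to 211 in fibroblasts (median 178) and rose by 1.41 (adjusted p = 6.08e-10, SE 0.209). Other secreted inhibitors moved the opposite way: Sfrp5 and Sfrp2 had fold changes of -3.46 and -2.21, from 152.6 ± 21.7 and 272 ± 21.5 CPM in fibroblasts to 15.1 ± 29.3 and 102.3 ± 115 CPM. Of 16 tested inhibitors, 4 were higher (Frzb, Wif1, Nkd1 and Notum) and 4 lower (Sfrp5, Sfrp2, Sfrp1 and Dkk2), and without library 5 the lower count was 2.

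Lef1, a transcription factor of WNT signalling and a target of it in skin, stood at 168 to 583 CPM in DC1 (median 275.2) and 59.4 to 109 in fibroblasts (median 72.4) and rose by 2.0 (adjusted p = 7.67e-15, SE 0.241). Ctnnb1, which encodes β-catenin, rose by 0.99 (adjusted p = 1.77e-07, SE 0.169), and Rspo3, a ligand that strengthens WNT signalling, by 1.86 (adjusted p = 4.77e-09, SE 0.288) to a mean of 195 ± 81.1 CPM (fibroblasts 45.8 ± 7.83). Fzd1, a WNT receptor, fell by 2.54 on the log2 scale, to a mean of 13.2 ± 14.4 CPM (fibroblasts 83.6 ± 8.89). The lower genes Sp5 and Lgr5 each rest on 1 UMI in DC1: Sp5 was 22.7-fold lower relative to total UMIs (95% counting interval 4.06 to 895) and Lgr5 21.6-fold (3.88 to 856). Of 28 tested ligands, receptors and effectors, 5 were higher and 6 lower (median 0.09). With the minimum of 50 CPM, 6 of 14 were higher and 0 lower.

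Of 12 tested hedgehog pathway genes 3 were higher (Gli1, Hhip and Ptch1), 4 were lower (Gas1, Cdon, Boc and Gli3) and 5 did not pass. Gli1, a transcription factor that is itself a target of the pathway, stood at 245.4 to 433 CPM in DC1 (median 253) and 54.0 to 71.2 in fibroblasts (median 67.3) and rose by 1.91 (adjusted p = 1.56e-12, SE 0.251). Hhip, a membrane protein that binds the ligand, stood at 58.3 to 1093 CPM in DC1 (median 192.4) and 11.1 to 30 in fibroblasts (median 18.1) and rose by 3.34 (adjusted p = 2.59e-24, SE 0.313), with most of its spread from library 2. Ptch1, the receptor and a further target, rose by 2.98 (adjusted p = 1.30e-06, SE 0.545), with 3.38 ± 1.18 CPM in fibroblasts and 31.1 ± 12.04 in DC1. The co-receptors Gas1, Cdon and Boc had fold changes of -2.21, -2.47 and -1.62, Gas1 from 714 ± 51.5 to 176 ± 79.3 CPM with no overlap and Boc in 6 of 7 libraries. Ptch1 and Boc did not pass outside the shared run of libraries 3, 5, 6 and 7, Boc not in libraries with at least 4 DC1 wells, and Cdon not in thinned wells.

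Of 14 tested Notch pathway genes, 3 were higher and 0 lower, with a median of 0.09. Heyl, a target of Notch, stood at 0 to 289 CPM in DC1 (median 122.7) and 5.45 to 13.7 in fibroblasts (median 7.62) and rose by 3.4 (adjusted p = 6.45e-13, SE 0.439), and library 1 alone had no Heyl UMI in DC1. Hey1, a related target, rose by 2.20 (adjusted p = 2.51e-04, SE 0.506). The receptor gene Notch1 rose by 1.26 (adjusted p = 0.0133, SE 0.396), but did not pass without library 4 (adjusted p = 0.0992) or without library 6 (adjusted p = 0.125).

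Within the BMP list, the ligands Bmp4 and Bmp7, the matrix gene Smoc1 and the intracellular inhibitor Smad7 were higher, and Smoc2, Gdf10 and the Id genes Id1, Id2 and Id3 were among the lower. Smoc1, a secreted matrix protein that binds BMPs (chromosome 12, 81026808 to 81186414), stood at 256.7 to 675 CPM in DC1 (median 389) and 8.15 to 18.1 in fibroblasts (median 12.2) and rose by 4.72 (adjusted p = 2.60e-65, SE 0.27). Its relative Smoc2 fell by 3.09 on the log2 scale. Id2, a response gene of BMP signalling, fell by 1.90 on the log2 scale in 6 of 7 libraries. Of 22 tested members 4 were higher and 6 lower.

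In the TGF-beta list 3 of 20 were higher and 4 lower. Ltbp1, which holds latent TGF-beta in the matrix, rose by 2.01 (adjusted p = 1.35e-14, SE 0.244) to a mean of 327 ± 70.3 CPM (fibroblasts 68.6 ± 7.68), and Smad3, a signal transducer, by 1.64 (adjusted p = 5.76e-06, SE 0.317). Tgfbi, a TGF-beta-induced matrix gene, had 3 UMIs in DC1, 13.2-fold lower relative to total UMIs (95% counting interval 4.51 to 64.1). In the FGF list 5 of 14 were higher and 3 lower. The feedback inhibitors Spry1 and Spred1 rose by 0.97 and 0.95, Dusp6 was also called higher, and Spry2 fell by 1.73 on the log2 scale. Without library 1, 3 FGF genes were higher. Fgf7 and Fgf18 had no UMI in DC1, at least 2.86-fold and at least 2.39-fold lower against a floor of 3 UMIs over the group.

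Transcription factors split into 15 higher and 13 lower of 38 tested, with a median of 0.05. Sox11, a factor of mesenchymal progenitors (chromosome 12, 27334268 to 27342718), stood at 1135 to 2358 CPM in DC1 (median 1342) and 104 to 143 in fibroblasts (median 112) and rose by 3.48 (adjusted p = 2.46e-70, SE 0.191). For Glis1, of the zinc finger class, the rise was 3.88 (adjusted p = 3.91e-33, SE 0.311), to a mean of 253 ± 160.2 CPM (fibroblasts 14.9 ± 2.50). On the lower side Nfib stood at 25.8 to 79.5 CPM in DC1 (median 48.1) and 606 to 834 in fibroblasts (median 759), and the highest DC1 sum was far below the lowest fibroblast sum. Its fold change was -3.96 (adjusted p = 1.64e-44, SE 0.274). Nfia and Hic1, a transcriptional repressor, had fold changes of -3.09 and -3.44. Among the other nuclear factor I genes, Nfic and Nfix were called lower too.

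Most tested genes of the interstitial matrix fell in DC1. Col1a1 and Col1a2, the chains of type I collagen, had fold changes of -2.87 (SE 0.163) and -2.76 (SE 0.154). Col1a1 stood at 525 to 2092 CPM in DC1 (median 1541) and 4358 to 11747 in fibroblasts (median 9378), and Col1a2 (chromosome 6) at 2134 to 4232 CPM in DC1 (median 3138) and 13921 to 20700.0 in fibroblasts (median 18596). Library 4 held the lowest Col1a1 sum in both groups. Of 16 tested interstitial collagens 9 were lower, among them Col3a1 and Col12a1, and 2 were higher: Col23a1, a transmembrane collagen (2.91, adjusted p = 8.09e-35, SE 0.228), and Col6a3 (0.42, adjusted p = 0.0496), which failed without library 3, 4, 6 or 7. Of 33 tested proteoglycan, elastic fibre and matricellular genes, 25 were lower and 2 higher (1 without library 3), with a median of -1.60.

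Dpt, which encodes dermatopontin (chromosome 1, 164796663 to 164824274), stood at 0 to 38.9 CPM in DC1 (median 0) and 440.4 to 733 in fibroblasts (median 562) and fell by 5.10 (SE 0.344, adjusted p = 6.52e-47) on the log2 scale. Dcn, decorin, stood at 337 to 997 CPM in DC1 (median 642) and 3115 to 4179.6 in fibroblasts (median 3922) and Sparc, osteonectin, at 661 to 1633 CPM in DC1 (median 994) and 4211 to 7492 in fibroblasts (median 6349.8). No UMI of Ogn, osteoglycin (chromosome 13, 49608015 to 49624501), was found in DC1 against 5928 in fibroblasts, at least 31.5-fold lower against a floor of 3 UMIs over the group. Aspn, asporin, had 2 UMIs in DC1 and 9028 in fibroblasts, 72.1-fold lower relative to total UMIs (95% counting interval 19.9 to 595). Cthrc1, Fibin, C1qtnf3, Angptl1 and Efemp1 had 1 UMI each in DC1, and Lox and Ptn 2 each, so that their fold changes are known only within wide intervals. Islr, an immunoglobulin-family gene with leucine-rich repeats, fell by 5.12 on the log2 scale, to a mean of 7.69 ± 9.64 CPM (fibroblasts 301 ± 43.9).

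Of 16 tested basement membrane genes (27 listed), 6 were higher and 1 lower (2 without library 1, 2 or 4). Lama2, a laminin chain, stood at 184 to 486 CPM in DC1 (median 373) and 54.7 to 71.1 in fibroblasts (median 67.4) and rose by 2.27 (adjusted p = 6.30e-19, SE 0.241). Nid1, nidogen, and Frem1 rose by 1.44 and 1.67, and Col4a1, Col4a2 and Col15a1 were also called higher, while Lama4 fell by 2.20 on the log2 scale. Whether the lists differ from each other was not tested.

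**Figure D4:**
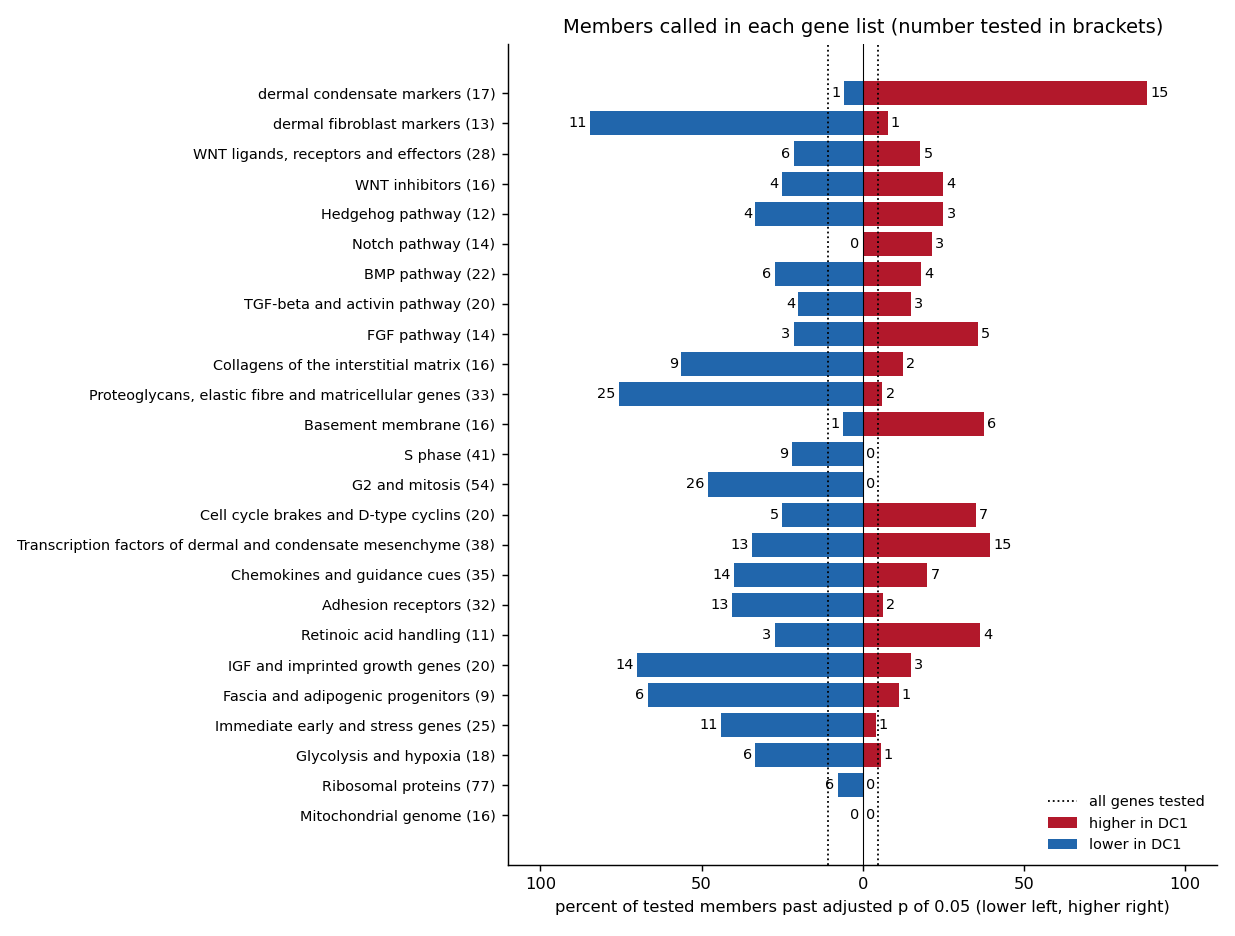
Percent of the tested members of each gene list called higher (right) or lower (left) in DC1, with the count at the bar's end and dotted lines at 4.60% and 10.9%, the shares of all genes tested. Condensate markers (15 of 17) reach farthest to the right, and fibroblast markers (11 of 13) farthest to the left, followed by the proteoglycan, elastic fibre and matricellular list (25 of 33).

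Cdkn1a, which encodes the cell cycle inhibitor p21, stood at 194 to 866 CPM in DC1 (median 404) and 27.7 to 74.2 in fibroblasts (median 50.7), with no overlap, and rose by 3.0 (adjusted p = 3.28e-33, SE 0.241). Plk2, a kinase of the G1 phase, rose by 3.68 (adjusted p = 3.46e-20, SE 0.378), and Rb1, the retinoblastoma gene, by 2.64 (adjusted p = 3.00e-07, SE 0.459) in 6 of 7 libraries. Of 20 tested brakes and D-type cyclins, 7 were higher and 5 lower, including Btg2, an inhibitor of proliferation, which fell by 1.54 on the log2 scale. The brake genes Cdkn1c and Cdkn2c were also called lower, and the D-type cyclin gene Ccnd1 was called higher. Genes of G2 and mitosis were lower in 26 of 54 and higher in 0, with a median of -0.84, and S phase genes were lower in 9 of 41 and higher in 0, with a median of -0.73.

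The counts of cycle genes changed with the filter and with single libraries. With the minimum of 50 CPM, 4 of 41 G2 and mitosis genes and 4 of 23 S phase genes were lower, against 11.3% of all genes. The G2 and mitosis share was then no larger than that of all genes. The G2 and mitosis count was 13 without library 2, 10 without library 4, 8 without library 6 and 13 without library 7, and the S phase count 16 without library 3 and 4 without library 5. Mki67, a marker of dividing cells, stood at 0 to 842 CPM in DC1 (median 141) and 284 to 503 in fibroblasts (median 411). DC1 sums of libraries 2 and 4 held no Mki67 UMI, while those of libraries 3 and 5 lay above every fibroblast sum. Its fold change was -0.94 (adjusted p = 6.23e-04, SE 0.229), lower in 5 of 7 libraries, and DESeq2 gave -1.63 (adjusted p = 0.153). The fit that also held DC0 and DC2 wells gave -0.87 (edgeR, adjusted p = 0.218). In thinned wells 20% of DC1 (5 of 25, 95% interval 6.83 to 40.7) and 40.3% of fibroblasts (37.5 to 43.2) held a Mki67 UMI. Ccna2, cyclin A2, fell by 1.38 on the log2 scale in 7 of 7 libraries, with overlap between the groups.

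Genes that guide or hold cells also split. Nrp2, a receptor of semaphorins and VEGF (chromosome 1, 62703317 to 62818692), stood at 506 to 1289 CPM in DC1 (median 794) and 52.6 to 82.2 in fibroblasts (median 68.6) and rose by 3.26 (adjusted p = 4.32e-51, SE 0.211), and Sema6a, a membrane semaphorin, rose by 1.96 (adjusted p = 3.65e-14, SE 0.242). Dclk1, a kinase that binds microtubules (chromosome 3, 55242303 to 55539068), stood at 481 to 1135 CPM in DC1 (median 818) and 50.3 to 71.1 in fibroblasts (median 64.5) and rose by 3.44 (adjusted p = 7.52e-56, SE 0.212). Cpne5, a calcium-dependent lipid-binding protein, rose by 3.27 (adjusted p = 1.92e-34, SE 0.258). While the receptor gene Cxcr4 rose, the gene of its ligand Cxcl12 fell by 4.35 on the log2 scale, from 185 ± 20.4 to 9.15 ± 14.4 CPM on 5 UMIs, and Cxcl14 and Cxcl1 had fold changes of -3.13 and -3.94. Of 35 tested chemokine and guidance genes 7 were higher and 14 lower. Of 32 tested adhesion receptors 13 were lower, led by Vcam1 (fell by 3.37 on the log2 scale), and 2 were higher, Sdc1 (1.65, adjusted p = 6.26e-11, SE 0.232) and Cd44 (1.25, adjusted p = 1.31e-08, SE 0.198).

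Retinoic acid genes included Cyp26b1, the enzyme that degrades retinoic acid, which stood at 545 to 1303 CPM in DC1 (median 596) and 63.9 to 96.1 in fibroblasts (median 82.6) and rose by 2.83 (adjusted p = 5.44e-37, SE 0.214). Dhrs3, which reduces retinaldehyde, rose by 1.99 (adjusted p = 1.94e-04, SE 0.452), and 4 of 11 tested genes were higher and 3 lower; without library 6 these were 2 and 1. In the list of IGF and imprinted growth genes 14 of 20 tested were lower, among them Igfbp5 and Igfbp2, and 3 were higher, the IGF genes Igfbp4, Igf1 and Igfbp3. Igf2 stood at 401 to 950.1 CPM in DC1 (median 605) and 3523 to 5814 in fibroblasts (median 4564) and fell by 3.09 (SE 0.177, adjusted p = 2.84e-65) on the log2 scale, and Mest and Dlk1 had fold changes of -3.21 and -2.14. The binding protein gene Igfbp4 rose by 1.66 (adjusted p = 4.48e-19, SE 0.175) to a mean of 1593 ± 357.1 CPM (fibroblasts 422.96 ± 101).

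Immediate early and stress genes, which can also respond to tissue dissociation, were lower in 11 of 25 tested and higher in 1, Klf4 (0.97, adjusted p = 1.40e-04, SE 0.216). Fos stood at 209 to 1264 CPM in DC1 (median 447) and 945 to 1434 in fibroblasts (median 1037) and fell by 1.22 on the log2 scale in 7 of 7 libraries. Of 18 glycolysis and hypoxia genes 6 were lower, Ldha with a fold change of -0.97. The higher one was Vegfa (0.79, adjusted p = 0.0365), which failed without library 3, 4, 6 or 7. Of 9 tested fascia and adipogenic genes 6 were lower, among them Cd34 (fell by 3.61 on the log2 scale). In this list 1 gene was higher, Zfp423, which failed without library 1, 3, 5, 6 or 7. With the minimum of 50 CPM, 2 of 3 were lower and 0 higher. Ribosomal protein genes were lower in 6 of 77 (2 or fewer without library 1, 2, 3, 4, 5 or 6), and mitochondrially encoded genes in 0 of 16, with 0 higher in either list.

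Libraries 3, 5, 6 and 7 share a sequencing run by their labels, and libraries 1, 2 and 4 do not. Within the shared run 327 of 10131 genes were higher (3.23%) and 753 lower (7.43%), and outside it 110 of 9268 (1.19%) and 230 (2.48%). No gene of 9253 passed a test of whether its DC1 to fibroblast difference itself differed between the 2 sets (edgeR). At an unadjusted p under 0.05 there were 410. With 4 libraries in the run and 3 outside it, this does not show the 2 sets to be alike. Fold changes within the run minus those outside it were 0.13 for Foxd1, -0.05 for Sox11, 0.08 for Bmp4 and -0.34 for Cdkn1a. Of the named genes tested, 10 had an unadjusted p under 0.05 for this difference and none passed adjustment, the smallest adjusted p being 0.247 (edgeR). They were Mki67 (2.11), Enpp2 (1.42), Sfrp5 (-2.31), Sfrp2 (-1.44), Igf1 (0.95), Btg2 (-1.21), Col12a1, Pcna, Gins2 and Junb. Mki67 had a fold change of -0.38 within the run (adjusted p = 0.384) and -2.62 outside it (adjusted p = 6.46e-05). Of the condensate markers, 11 of 17 tested were higher outside the run and 18 of 20 within it.

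The same 7 libraries also hold 25 DC0 and 29 DC2 wells, the other wells with a DC name. Of 1814 genes tested, 0 differed between DC1 and the mean of DC0 and DC2 (edgeR; DESeq2 also 0; 105 genes at an unadjusted p under 0.05), and 5 did with no filter. The smallest p belonged to Fzd2, a WNT receptor, at 0.67 (SE 0.189, adjusted p = 0.518). That does not show the populations to be alike. A gene that changes evenly on the log scale from DC0 through DC1 to DC2 cancels in this contrast and cannot be found by it. Mean levels in DC0, DC1 and DC2 sums were 353.5, 530.0 and 421 CPM for Foxd1, 875, 1581 and 1191 CPM for Sox11, 5.81, 155.4 and 401 CPM for Cxcr4 and 23.1, 195 and 271 CPM for Frzb. The last pair stood lowest in DC0, and this order was not tested. The DC2 sum of library 1 held only 2855 UMIs. Some other changes named above were also seen in DC0 and DC2, and others were not. In the fit of all 4 populations, fold changes over fibroblast in DC0, DC1 and DC2 were 4.17, 3.22 and 2.64 for Cdkn1a. They were 3.94, 3.45 and 4.26 for Bmp7, -2.38, -2.69 and -2.58 for Col1a1, and -2.95, -2.91 and -3.35 for Igf2. By contrast, they were 0.02, 1.11 and 1.55 for Klf4 and -0.52, 1.79 and 3.69 for Inhba. In DC0 neither of these passed (edgeR, adjusted p = 0.979 and 0.557).

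A ninth library held only DC1 among the 4 populations, 1436924 UMIs in all and 114 wells of at least 3000 UMIs, so its plate and its population cannot be told apart, and its levels are given as a description. Foxd1 stood at 462 CPM there, Sox11 at 1199.8, Bmp4 at 515, Cdkn1a at 613, Col1a1 at 1651 and Nfib at 114. Over 121 called genes named by the rule with UMIs in both sets of DC1 wells, the level in library 9 was a median of 1.07 times the mean of libraries 1 to 7, and 100 lay within 2-fold. The ratio ran from 0.174 (Aspn) to 16.7 (Cthrc1), both on 1 or 2 UMIs in DC1 of libraries 1 to 7. The eGFP row lay beyond 2-fold, at 70.3 CPM in library 9 against a mean of 244.9 ± 127. Foxd1 had a UMI in 62.3% of these wells after thinning (52.7 to 71.2), Sox18 in 67.5% (58.1 to 76.0), Sox2 in 37.7% (28.8 to 47.3) and Cxcr4 in 46.5% (37.1 to 56.1).

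**Figure D5:**
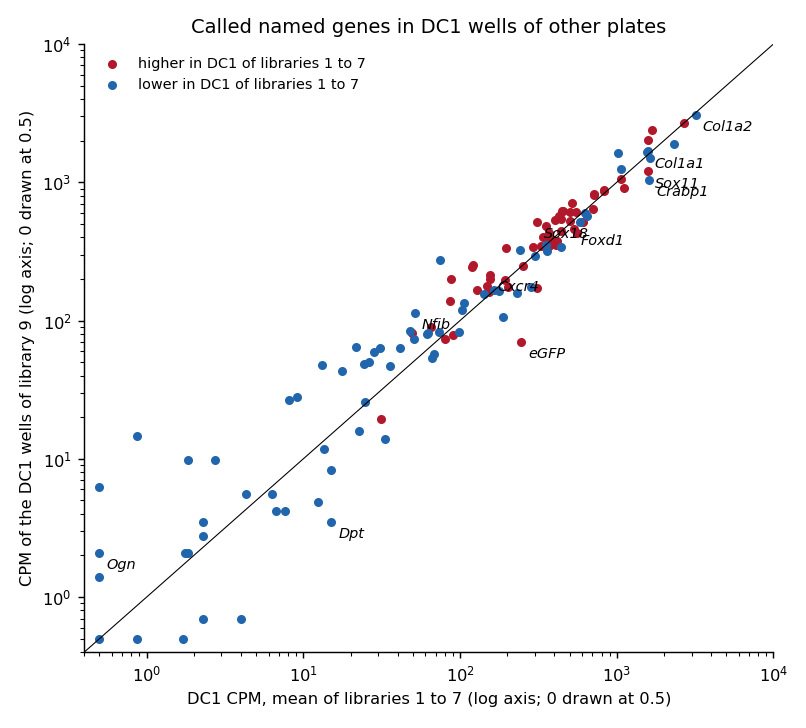
Mean CPM of DC1 sums in libraries 1 to 7 (x) and CPM of the DC1 wells of library 9 (y) for called named genes, both on log axes with 0 drawn at 0.5 and a line of equality. Points gather along the line above about 50 CPM and scatter below it, where few UMIs were counted.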

How the data were processed

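The deposited table holds, for each gene and well, an expected count that the authors made from distinct UMIs, corrected for collisions among 4096 possible UMIs, as the values themselves show (0 of 7480233 values above 0 departed from the formula by more than its rounding). Rounding to integers changed 13.5% of the values above 0. The design had assumed whole counts. Per the submitters' processing notes BWA 0.6.2-r126, TopHat2 2.0.3, Cufflinks 2.1.1 and Bowtie2 were used, in roles not given, with build mm10. The 86 spike-in rows (1.65% of the UMIs of these wells) and wells of other names were left out of the sums.

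Sums per library and well name were compared in R 4.3.3 by the quasi-likelihood test of edgeR 4.0.16 (filterByExpr, TMM, library as block, Benjamini-Hochberg at 0.05). The fit was also run on simulated counts that gave every gene the same spread. Such counts cannot show how it treats genes whose plates spread more. DESeq2 1.42.0, limma 3.58.1 and other filters, scalings and well sets served as alternatives. The block follows from the plates. The deviations of the DC1 and fibroblast sums of a plate correlated at 0.0158 to 0.402 over 1000 genes. For libraries 1, 6 and 7 the DC1 sum correlated best with the fibroblasts of another plate (4, 5 and 6). Single values were tested with exact sign-flip permutations over libraries. No doublet caller was run on cells sorted into wells.

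The named genes were the 12 largest rises and 12 largest falls that passed the test, were at least 1 (log2) in size, had 1 direction in every library and averaged at least 6 in log2 CPM, then 12 set genes, then up to 3 higher and 3 lower per list by p. A gene named without a value came from a list and was picked after results were seen. Members and lists were chosen with earlier results of these data known. The 12 bulk samples were not analysed here. Some results are withheld and not reported here.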

Additional observations from a re-analysis of the deposited data

Results flagged for a closer look

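In 6 of 56 groups of 7 library sums, 1 library stood apart from the rest by Dixon's test at the 95% level, which chance alone does in about 1 in 20 groups. Library 2 held Cxcr4 at 397.6 CPM in DC1, against 142.1 in the next highest, on a sum of 4 wells. Library 1 held Crabp1 at 4668 CPM in DC1, against 2080 in the next.

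Library 4 gave the other 4. Its Col1a1 stood lowest in DC1 (525.1 CPM) and in fibroblasts (4358 CPM), and its fibroblasts held the most Sox11 (142.9 CPM) and Sox18 (10.45 CPM). No cause was tested.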

How the results depend on the processing

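Of the named genes, 74 kept their direction and their side of the threshold under every alternative that tested them and 54 did not, and 117 kept both without each library in turn. Only Twist2, not called, changed direction: -0.04025 outside the shared run, -0.5945 in thinned wells, and -0.05986 and -0.05529 in limma with pseudocounts of 10 and 50.

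The count of higher genes (426) was 110 outside the shared run, 80 in wells thinned to 3000 UMIs, 262 in limma with a pseudocount of 10 and 645 with totals alone. The count of lower genes (1013) was 435 with a mean of at least 50 CPM, 230 outside the shared run, 317 in thinned wells, 499 in libraries with at least 4 DC1 wells, 305 in the fit of 4 populations and 420 with totals alone and the 50 CPM minimum. Fewer genes were tested in thinned wells (3144), with the 50 CPM minimum (3833) and in the fit of 4 populations (1814), and fewer libraries outside the run and with at least 4 wells. For limma and totals alone the cause was not tested. Leaving out a library gave 304 to 462 higher and 817 to 923 lower. With no replicate block the counts were 585 and 1123, and 4 named calls were lost. Against the mean of DC0 and DC2, 0 genes became 5 with no filter. The fits with totals alone were chosen after seeing the data. Depth limits what can be seen of low genes in DC1, where 1 UMI was worth up to 49.7 CPM.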
